A study of Mus musculus with 2 samples.

Results

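The proneural and neuronal basic helix-loop-helix (bHLH) factors *Neurog1*, *Neurog2*, *Neurod1*, *Neurod2*, *Neurod4*, *Neurod6*, *Nhlh1*, *Nhlh2* and *Bhlhe22* were followed across the cells of the embryonic mouse cortex. These 9 genes were taken by symbol from the 32285 genes of the count matrices. The matrices came from droplet single-cell RNA sequencing (10x Genomics 3′ chemistry) of cerebral cortex dissected at embryonic day (E) 16.5 and dissociated with papain. Both libraries, replicate 1 and replicate 2, came from wild-type (WT) control embryos of the *EomesDot* colony, an *Eomes-Cre* mouse line, and no mutant, treatment or other age was analysed here. The labels do not say whether a library held 1 embryo or several. The p-values below rest on how far differences between classes varied between these 2 libraries, pooled over the classes of a fit. They do not measure a spread between embryos.

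bHLH factors bind the DNA motif called the E-box as dimers, usually with a ubiquitous E protein (*Tcf3*, *Tcf4*, *Tcf12*). In the pallium, the dorsal forebrain, the proneural factors *Neurog1* and *Neurog2* drive cell cycle exit and the excitatory neuron fate, and the NeuroD and Nhlh families act after them in newborn neurons. Radial glial cells (RGCs) give rise to *Eomes*-expressing intermediate progenitors (IPCs), which divide to produce excitatory neurons. GABAergic cells are made in the subpallium and migrate into the cortex.

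The libraries held 46398156 and 64324236 unique molecular identifiers (UMIs, each 1 captured RNA molecule) in 9049 and 13556 barcodes. Cells of 1500 to 60000 UMIs with under 10% mitochondrial UMIs numbered 5966 and 10247, of which 5534 and 9136 remained after doublet removal, at medians of 5502 and 4720.5 UMIs. The libraries shared 40 barcodes, 16 of them on kept cells. Cells were clustered without the 9 genes and without 27 other bHLH and HLH genes, and 23 of 27 clusters were named after marker genes. Levels are in CPM, the UMIs of a gene for every 1000000 UMIs of all cells of a class in a library, and are given as replicate 1 and replicate 2. Because the classes came from the expression of the same cells, and genes that vary with the members helped to draw them, differences between classes describe how the members follow those classes.

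The RGC-like class held 338 and 597 cells and the IPC-like class 262 and 440. At least 2 *Eomes* UMIs were found in 85.5% and 78.9% of IPC-like cells, against 6.51% and 3.02% of RGC-like cells. IPC-like cells fell into a cycling cluster of 41 and 107 cells and a larger cluster of 221 and 333 cells. The newborn migrating neuron-like class held 973 and 1598 cells in 2 clusters, which differed in the share of cells with an *Eomes* UMI (30.3% and 25.2% against 0.396% and 0.346%) and are called the *Eomes*-richer and *Eomes*-poorer newborn clusters. Upper-layer neuron-like cells numbered 662 and 1216 and deep-layer neuron-like cells 270 and 309. GABAergic progenitor-like cells numbered 264 and 525, of which 93.2% and 88.6% had at least 3 UMIs of *Gad* and *Dlx* genes, 97.3% and 95.4% were scored in S or G2/M phase, and 0 and 1 cells had at least 2 *Eomes* UMIs.

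In the RefSeq annotation of GRCm38.p6, the assembly also called mm10, the members lie on 7 chromosomes. Promoter windows of 250 bases before an annotated start were found for 8 of the 9 members, and 5 of these 8 held the E-box letters CANNTG, which read the same on both strands. Of all 32851 such windows 66.2% held at least 1. The windows of *Neurod2*, *Neurod6* and *Neurog2* are shown because of their patterns across classes. The first 2 genes followed each other most closely by Pearson's r, though not by rank correlation, and the third was highest in the IPC-like class. The *Neurod2* window lies at chr11:98329646-98329895 and the *Neurod6* window at chr6:55681264-55681513, both on the minus strand, and the *Neurog2* window at chr3:127632886-127633135 on the plus strand. The *Neurog2* start used is that of a transcript that begins inside the annotated gene, whose span opens at chr3:127632733. Capitals mark E-box letters, which begin 118, 51 and 17 bases before the start in *Neurod2* and 162 and 132 bases before it in *Neurod6*, and which the *Neurog2* window did not hold.
Neurod2: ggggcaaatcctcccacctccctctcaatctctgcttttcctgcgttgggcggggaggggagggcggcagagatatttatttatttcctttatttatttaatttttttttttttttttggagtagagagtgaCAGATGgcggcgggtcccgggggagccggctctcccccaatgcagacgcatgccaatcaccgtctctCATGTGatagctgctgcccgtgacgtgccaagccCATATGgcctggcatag
Neurod6: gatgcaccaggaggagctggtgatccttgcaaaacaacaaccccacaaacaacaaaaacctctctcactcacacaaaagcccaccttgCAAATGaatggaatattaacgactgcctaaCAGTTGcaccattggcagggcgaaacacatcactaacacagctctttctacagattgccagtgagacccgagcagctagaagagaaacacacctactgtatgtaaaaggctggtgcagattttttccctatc
Neurog2: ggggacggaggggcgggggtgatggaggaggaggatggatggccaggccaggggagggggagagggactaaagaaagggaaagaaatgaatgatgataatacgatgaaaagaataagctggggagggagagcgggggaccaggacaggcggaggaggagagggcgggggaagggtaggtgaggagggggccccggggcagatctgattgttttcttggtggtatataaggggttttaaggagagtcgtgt

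The first question was how the members changed from RGC-like to IPC-like cells. All 9 were higher in IPC-like cells at an adjusted p under 0.05 (edgeR quasi-likelihood test on UMIs summed per library and class, 2 libraries, Benjamini-Hochberg over 15308 genes), where 32.5% of all genes tested were called, 14.3% higher and 18.2% lower. Genes entered the test with at least 10 UMIs in 2 sums, and all 9 members did. *Neurog1* and *Neurod4* reached that number in IPC-like cells alone, so their calls in every comparison with that class follow from the class that admitted them, and the count of 9 is no support by itself. Under DESeq2 6 were called, without *Neurog1*, *Neurod4* and *Nhlh1*. The median log2 fold change was 3.96 over the members and -0.04 over all genes.

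*Neurog2*, the main proneural factor of the pallium, lay above every non-neural class already in RGC-like cells. It measured 84.6 and 47.5 CPM there, against 514.5 and 518.1 CPM in the IPC-like class, so that both IPC-like libraries lay above both RGC-like ones. Its log2 fold change was 3.07 ± 0.17 (SE; adjusted p = 2.17e-18, edgeR), with log2 ratios of 2.60 for replicate 1 and 3.45 for replicate 2, the RGC-like level being the one that differed between libraries. A *Neurog2* UMI was found in 15.1% (exact 95% interval 11.4 to 19.4) and 9.88% (7.61 to 12.6) of RGC-like cells, compared with 83.6% (78.5 to 87.9) and 78.2% (74.0 to 82.0) of the IPC-like class. RGC-like cells had median depths of 7609 and 4992 UMIs, IPC-like cells of 8454.5 and 6971.5, and after each cell was thinned to 1500 UMIs the shares were 6.80% and 4.36% against 47.3% and 43.2%. In endothelial-like cells, which are taken to lack the gene, 0 of 43 cells, which allows a share of up to 6.98%, and 3 of 89 cells (3.37%) had a *Neurog2* UMI at median depths of 9237 and 6962 UMIs. All such intervals cover counting error only.

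*Neurog1*, the paralog that acts beside *Neurog2* earlier in the pallium, was close to the limit of detection. RGC-like cells held 3 and 3 UMIs (1.06 and 0.84 CPM), whereas IPC-like cells held 14 and 14 (6.02 and 4.49 CPM). The ratio was 5.48 with a counting interval of 2.23 to 16.2 (adjusted p = 0.0123, edgeR).

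*Neurod4*, which acts downstream of the proneural factors, was not detected in RGC-like cells, with 0 of 338 and 0 of 597 cells holding a UMI, which allows a share of cells with a UMI of up to 0.888% and 0.503% and does not limit the share that made the transcript. In IPC-like cells it had 81 and 69 UMIs (34.8 and 22.1 CPM), at least 26.3-fold higher when 3 UMIs per library stand for the RGC-like class. A UMI was found in 17.9% and 12.05% of IPC-like cells. *Nhlh1*, a short-lived factor of newborn neurons, went from 0 and 2 UMIs in the RGC-like class to 43 and 39 UMIs in the IPC-like class (18.5 and 12.5 CPM), a ratio with a counting interval of 12.9 to 404.5. *Nhlh2*, its relative, rose from 0 and 1 UMI to 25 and 7 UMIs (10.8 and 2.25 CPM), of which the replicate 2 level lay within the 0 to 7.74 CPM of 5 non-neural classes, and as a ratio the 2 IPC-like libraries differed more than for any other member.

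*Neurod1*, which promotes neuronal differentiation, went from 0 and 12 UMIs (0 and 3.37 CPM) in RGC-like cells to 134 and 112 CPM in IPC-like ones. Its log2 fold change was 6.06 ± 0.32 (adjusted p = 3.69e-19, edgeR), and was 5.06 in replicate 2 alone, since replicate 1 had no UMI to divide by. *Neurod2* and *Neurod6*, factors of differentiating excitatory neurons, rose from 4.58 and 11.8 to 117.0 and 133 CPM and from 21.5 and 39.3 to 369 and 430 CPM, by 3.96 ± 0.25 and 3.78 ± 0.17 on the log2 scale. For *Neurod2* the log2 ratio was 4.67 in replicate 1 and 3.50 in replicate 2. *Bhlhe22*, a repressor that helps to set the identity of cortical areas in postmitotic neurons, moved least, from 8.11 and 10.1 to 14.2 and 25.0 CPM, by 1.21 ± 0.30 (adjusted p = 0.00116, edgeR). When classes were cut by gates on marker UMIs in place of clusters, the *Bhlhe22* difference was -1.05, the opposite direction.

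Some of these levels were no higher than those in cells outside the excitatory lineage. Across 5 non-neural classes (endothelial-, pericyte-, fibroblast-, microglia- and erythroid-like) *Neurod6* measured 17.8 to 215 CPM with a median of 38.7, and 100.6 at most without the erythroid-like class. In the 4 GABAergic neuron-like classes it measured 31.4 to 58.2 CPM. The RGC-like levels of *Neurod6*, *Neurod2* and *Bhlhe22* lay within these ranges, and so did the IPC-like levels of *Bhlhe22*, since non-neural classes held 0 to 85.6 CPM of *Neurod2* and 2.32 to 45.5 CPM of *Bhlhe22* (46.4 and 23.2 CPM at most without the erythroid-like class). Levels of *Neurog2* and *Neurod1* in non-neural classes were at most 12.5 and 15.5 CPM (7.74 for *Neurog2* without the erythroid-like class), below the IPC-like levels. After thinning, a *Neurod6* UMI was found in 4.73% and 7.37% of RGC-like cells and in 4.65% and 6.74% of endothelial-like cells. No expression is read from the RGC-like share, and the source of these UMIs was not tested.

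The next step was from IPC-like cells to newborn migrating neuron-like cells, where 6 of the 9 members were called, 3 higher and 3 lower, the last with *Neurog1* and *Neurod4*, which IPC-like cells alone had admitted. Of all genes 33.3% were called, 17.1% higher and 16.2% lower. Under DESeq2 4 members were called, without *Neurog1* and *Neurod4*. The members therefore divided into genes that fell, genes that rose and 3 that did not pass the test.

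*Neurog2* fell from 514.5 and 518.1 to 22.6 and 22.9 CPM, a log2 change of -4.42 ± 0.18 (adjusted p = 9.82e-23, edgeR). *Neurod4* fell to 2 and 3 UMIs in all, a ratio of 35.8 to 267 by its counting interval. *Neurog1* fell to 0 and 1 UMI. *Neurod4* and *Neurog1* were thus at or near the floor in the class that followed, and *Neurog2* was not.

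*Neurod2* rose to 497 and 501 CPM, *Neurod6* to 994 and 942 CPM and *Bhlhe22* to 201 and 219 CPM. The changes were 2.08 ± 0.15, 1.37 ± 0.13 and 3.48 ± 0.18 on the log2 scale, and for each gene both newborn libraries lay above both IPC-like ones. *Neurod1* measured 145 and 129 CPM (difference 0.24 ± 0.15, adjusted p = 0.224, edgeR), *Nhlh1* 7.71 and 6.01 CPM (-1.08 ± 0.43, adjusted p = 0.0522) and *Nhlh2* 9.57 and 5.89 CPM (0.43 ± 0.42, adjusted p = 0.479).

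Dividing the classes into their clusters separated members that the classes joined. *Neurog2* measured 213 and 347 CPM in the cycling IPC-like cluster, 605 and 592 CPM in the larger IPC-like cluster, 31.6 and 32.0 CPM in the *Eomes*-richer and 14.1 and 15.2 CPM in the *Eomes*-poorer newborn cluster. *Neurod1* measured 72.7 and 68.9, 152 and 131, 226 and 214, and 69.6 and 58.3 CPM in the same 4 clusters. *Neurog2* was thus highest in the larger IPC-like cluster and *Neurod1* 1 cluster further on, in the *Eomes*-richer newborn cells, in both libraries.

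*Nhlh1* measured 22.9 and 17.02 CPM in the larger IPC-like cluster, 14.2 and 11.9 CPM in the *Eomes*-richer newborn cluster and 1.66 and 1.08 CPM in the *Eomes*-poorer one. *Nhlh2* measured 13.4 and 3.22, 13.9 and 9.81, and 5.52 and 2.60 CPM there, and its levels in the first 2 of these overlapped between libraries. *Neurod4* was found at 26.1 and 20.2 CPM in the cycling IPC-like cluster and 37.5 and 23.0 CPM in the larger one, ranges that overlapped, and at under 1 CPM in either newborn cluster.

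*Neurod2* reached 466 and 455 CPM in the *Eomes*-richer and 526 and 539 CPM in the *Eomes*-poorer newborn cluster, where it was highest. *Neurod6* was at 950 and 897 and at 1035 and 980 CPM. *Bhlhe22* came later than both: the *Eomes*-richer cluster held 35.9% and 39.1% of its highest lineage level against 88.5% and 84.5% for *Neurod2* and 88.1% and 76.9% for *Neurod6*, and the *Eomes*-poorer cluster held 96.1% and 93.1%. These clusters were compared as levels and were not tested.

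**Figure D1:**
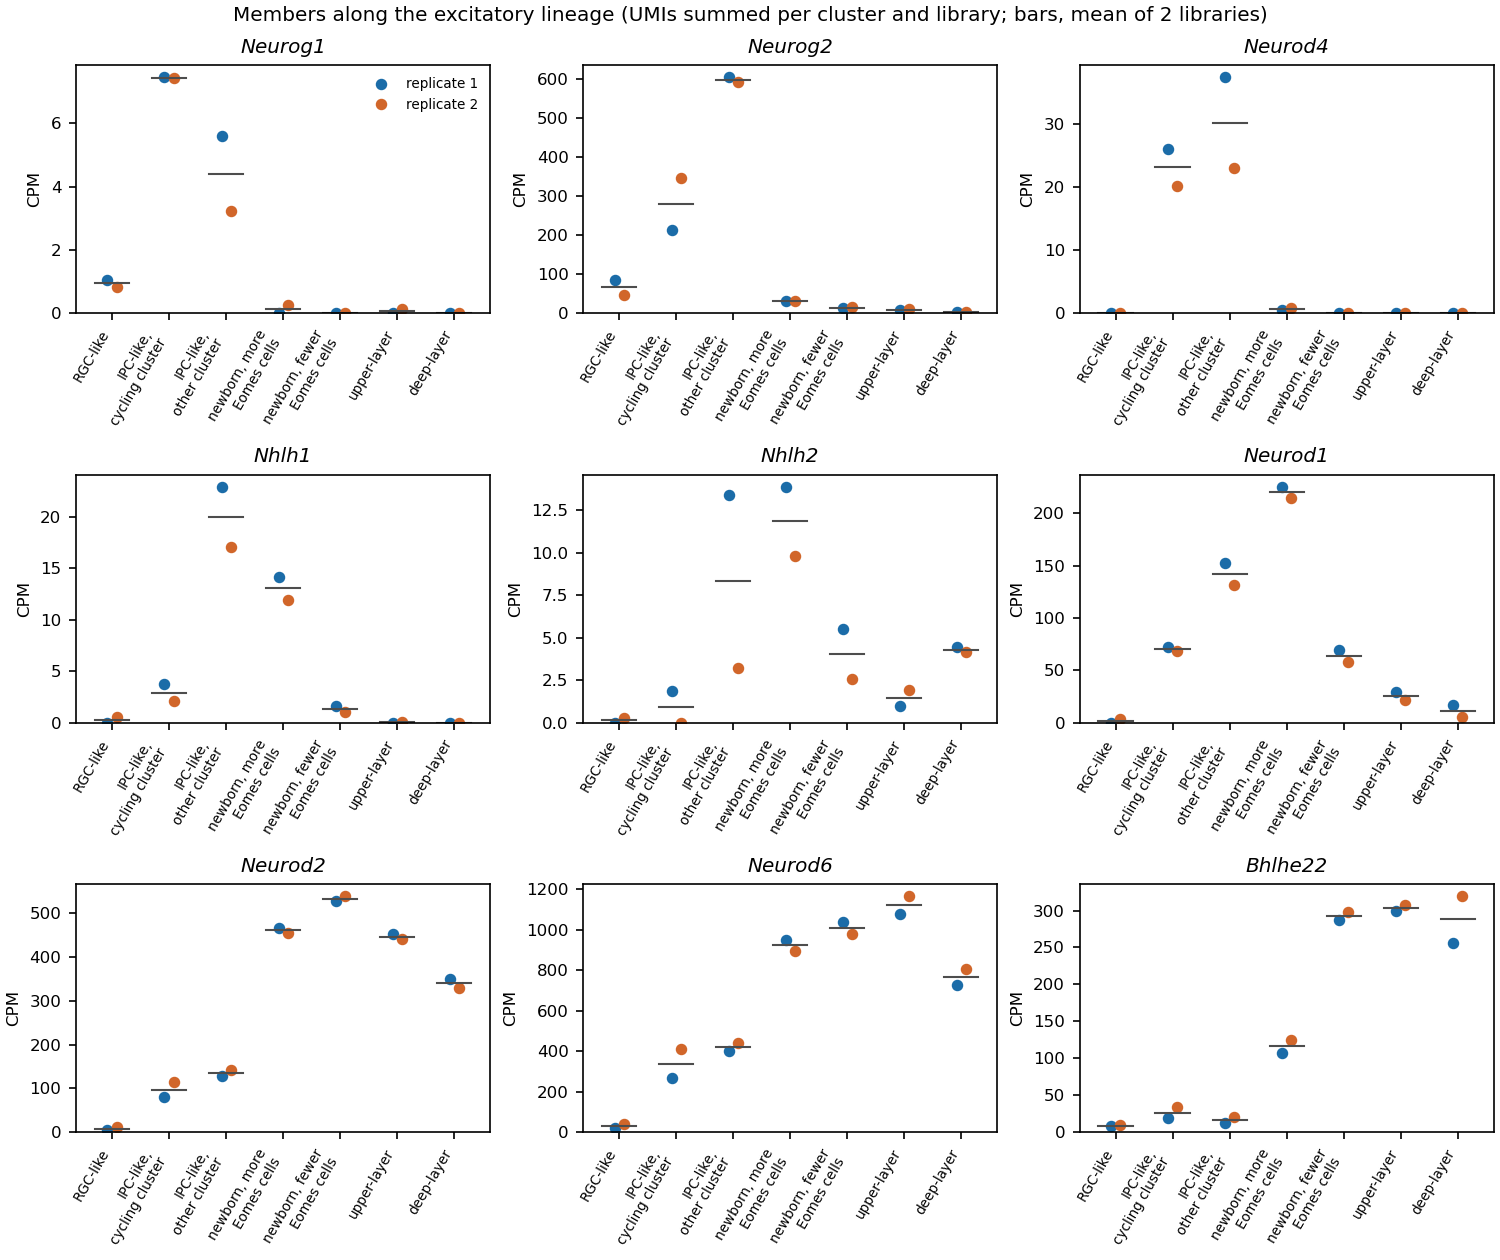
Level of each member in CPM (y axis, each panel from 0 to its own maximum) in 7 clusters of the excitatory lineage (x axis), with 1 point per library and a bar at the mean. *Neurog2*, *Neurod4* and *Neurog1* were highest in the IPC-like clusters, *Neurod1* was highest at 226 and 214 CPM in the *Eomes*-richer newborn cluster, and *Bhlhe22* reached 288 and 298 CPM in the *Eomes*-poorer one.

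In upper-layer neuron-like cells all 9 members differed from IPC-like cells, 3 higher and 6 lower (4 lower without *Neurog1* and *Neurod4*, admitted by IPC-like cells alone), where 48.6% of all genes were called, 24.5% higher and 24.1% lower. DESeq2 called 6 of them, without *Neurog1*, *Neurod4* and *Nhlh1*. *Neurog2* was down to 7.75 and 9.73 CPM (-5.75 ± 0.20), within the range of the non-neural classes only through the erythroid-like class. *Neurod1* had fallen to 29.4 and 22.1 CPM (-2.18 ± 0.18), above the 15.5 CPM at most of the non-neural classes. *Neurod4* had 0 UMIs in both libraries, at least 58.4-fold lower, and *Nhlh1* had 0 and 1 UMI. *Nhlh2* measured 0.99 and 1.92 CPM (-1.82 ± 0.54, adjusted p = 0.0050, edgeR), but its log2 ratio was -3.44 in replicate 1 and -0.22 in replicate 2, the libraries differing in both classes. Its upper-layer levels lay within the 0 to 7.74 CPM of the non-neural classes.

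*Neurod2* measured 452 and 440 CPM in upper-layer neuron-like cells, *Neurod6* 1078 and 1167 CPM and *Bhlhe22* 299 and 307 CPM. Against IPC-like cells they were higher by 1.92 ± 0.15, 1.58 ± 0.13 and 4.01 ± 0.18 on the log2 scale. A *Neurod6* UMI was found in 97.7% and 96.9% of these cells and in 75.2% and 76.6% after thinning.

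Deep-layer against upper-layer neuron-like cells gave 3 called members, all lower in deep-layer cells, where 13.8% of all genes were called, 5.72% lower and 8.07% higher. *Neurod6* measured 727 and 805 CPM (-0.55 ± 0.13, adjusted p = 0.00143, edgeR), *Neurod1* 16.7 and 5.58 CPM (-1.20 ± 0.30, adjusted p = 0.00363) and *Neurog2* 1.97 and 2.79 CPM from 4 and 6 UMIs (-1.88 ± 0.58, adjusted p = 0.0206). None of the 3 calls was kept by DESeq2. The last 2 genes lay within the range of the non-neural classes in at least 1 library of the deep-layer class. *Neurod2* measured 349 and 329 CPM (-0.39 ± 0.14, adjusted p = 0.0599), *Bhlhe22* 257 and 320 CPM (-0.07 ± 0.13, adjusted p = 0.803) and *Nhlh2* 4.43 and 4.19 CPM (1.43 ± 0.63, adjusted p = 0.139).

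**Figure D2:**
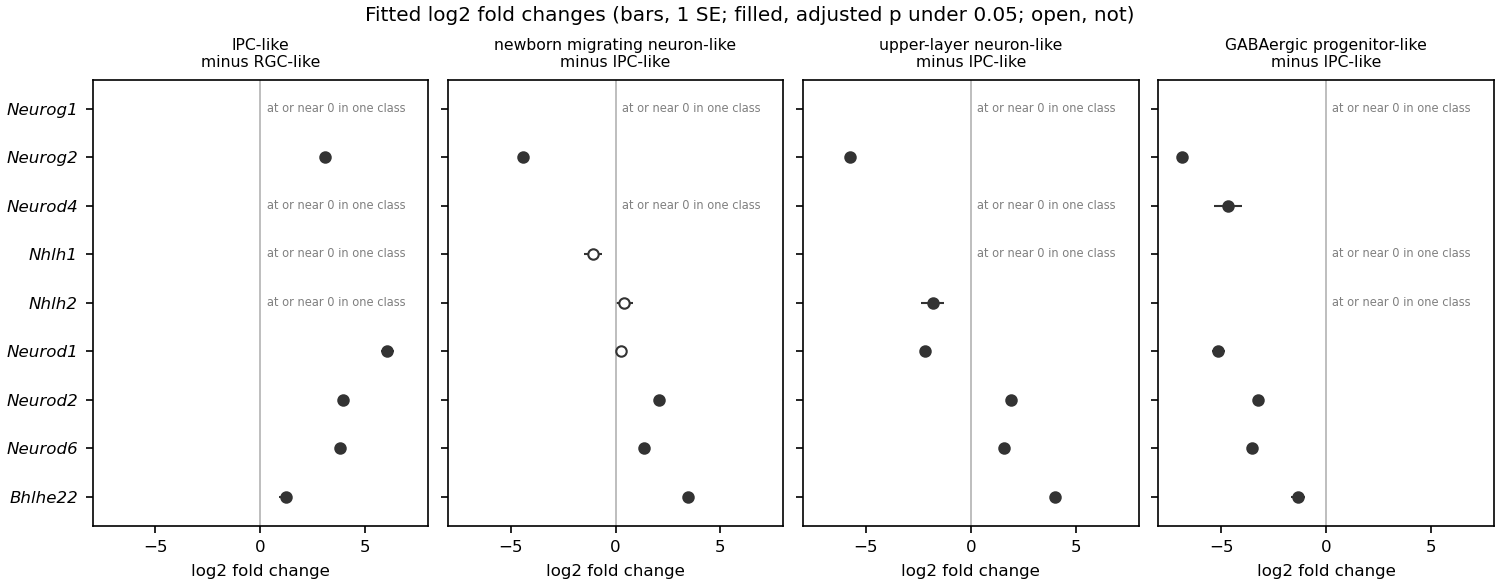
Fitted log2 fold change of each member (x axis) in 4 comparisons of classes, with bars of 1 SE, filled points for adjusted p under 0.05 and open points for the rest. Members with a class at or near 0 UMIs are written as such, and *Neurog2* went from 3.07 in the first panel to -4.42 in the second.

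Within the progenitor classes, cells scored in S or G2/M phase (cycling) were compared with cells scored in G1 (non-cycling) in the same library. The phase is a call from gene scores: GABAergic interneuron-like classes, which are taken to be postmitotic, were scored in S or G2/M in 6.37% to 15.6% of cells, against 8.597% and 10.2% in the larger IPC-like cluster, and how many of the cells called cycling were dividing was not tested. There were 60 and 141 cycling and 202 and 299 non-cycling IPC-like cells. The cycling group held all 41 and 107 cells of the cycling cluster, and every non-cycling cell lay in the larger cluster. Phase and cluster therefore cannot be told apart for most of the cycling cells. These clusters also differed in the share of cells with an *Eomes* UMI (80.5% and 80.4% against 96.4% and 94.9%). Their median depths were 13544 and 8111 against 8245 and 6652 UMIs. Of the 7 members tested 5 were lower in cycling cells, where 29.6% of 10189 genes were called and 12.9% were called lower.

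*Neurod1* measured 70.6 and 66.8 CPM in cycling IPC-like cells against 160 and 139 CPM in those not cycling, a log2 difference of -1.04 ± 0.15 (adjusted p = 5.23e-06, edgeR). *Neurog2* measured 350 and 427 CPM against 583 and 572 CPM (-0.49 ± 0.08, adjusted p = 5.28e-05). *Nhlh1* had 9 and 3 UMIs against 34 and 36 (-1.45 ± 0.47, adjusted p = 0.0205), a ratio of 1.61 to 6.08 by its counting interval, with log2 ratios of -0.64 in replicate 1 and -2.84 in replicate 2.

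*Neurod2* and *Neurod6* were lower in cycling cells by smaller amounts, -0.41 ± 0.14 and -0.36 ± 0.09 on the log2 scale. *Neurod4* measured 30.9 and 22.3 CPM against 36.5 and 22.1 CPM (-0.04 ± 0.26, adjusted p = 0.927, edgeR) and *Bhlhe22* 14.7 and 32.6 against 14.0 and 20.5 CPM (0.55 ± 0.30, adjusted p = 0.180). Under DESeq2 1 member was called, and 3 were called without the replicate block. With the clustering as first written *Neurog2* and *Nhlh1* turned direction and were higher in cycling cells, by 0.45 and 0.18.

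In RGC-like cells, 203 and 336 cells were cycling and 135 and 261 were not. *Neurog2* measured 58.7 and 37.6 CPM in cycling and 133 and 60.9 CPM in non-cycling cells, a log2 difference of -0.96 ± 0.16 (adjusted p = 0.0002, edgeR). It was the 1 member called of 4 tested, where 23.3% of 11174 genes were called and 11.1% were called lower. The call was lost under DESeq2, and when the members themselves were allowed into the clustering the difference was 0.80, the opposite direction. For *Neurog2* the cycle difference in IPC-like cells minus that in RGC-like cells was 0.45 ± 0.29 on the log2 scale (adjusted p = 0.548, edgeR over 11714 genes). No member that entered this test of the difference between classes passed it, and *Neurog1* and *Nhlh2* did not enter it.

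**Figure D3:**
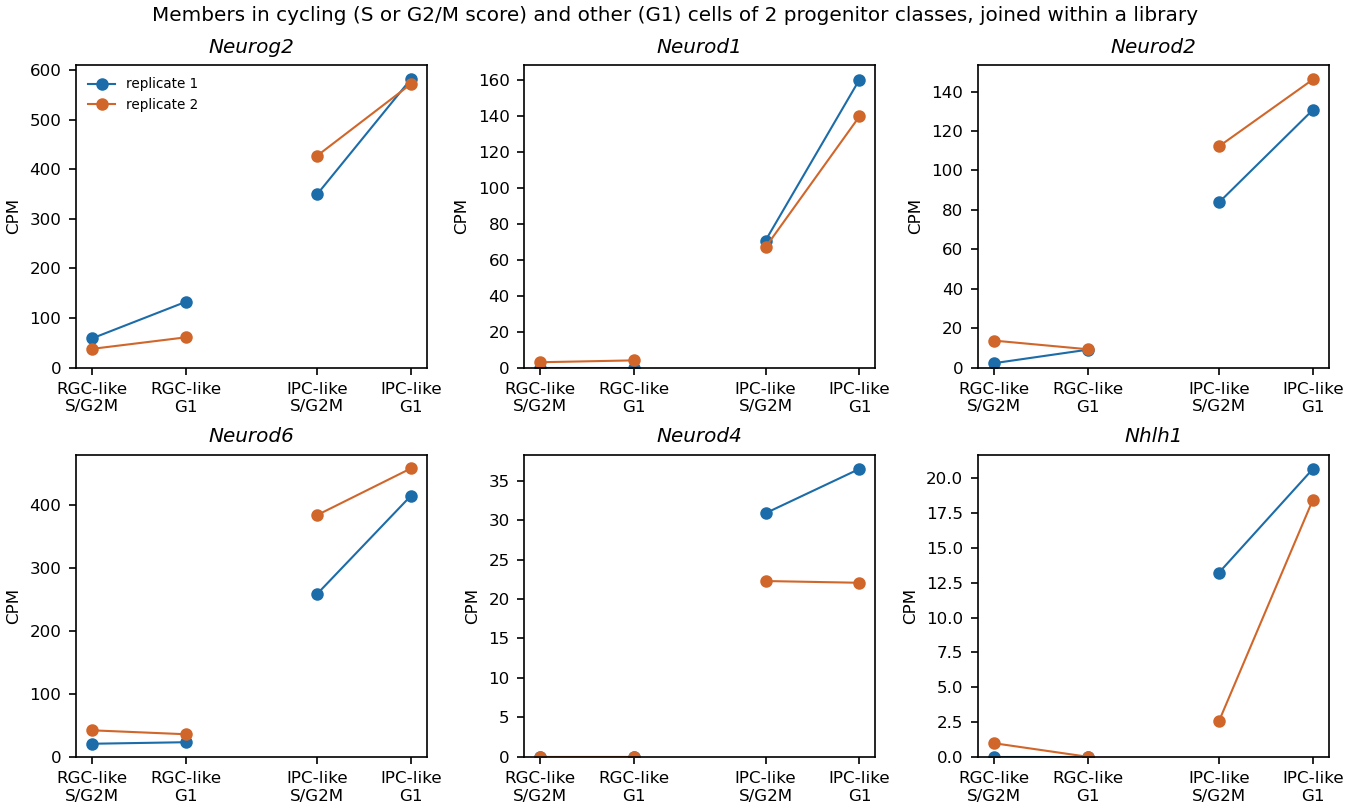
Level of 6 members in CPM (y axis) in cycling (S/G2M) and non-cycling (G1) RGC-like and IPC-like cells (x axis), with the points of 1 library joined by a line. *Neurog2* lay lower in cycling cells in both classes and both libraries, and *Neurod1* in IPC-like cells at 70.6 and 66.8 against 160 and 139 CPM.

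Single cells showed which members were found together. With every cell thinned to 1500 UMIs, an *Eomes* UMI was found in 9 of 23 (39.1%, exact 95% interval 19.7 to 61.5) and 11 of 26 (42.3%, 23.4 to 63.1) RGC-like cells with a *Neurog2* UMI. Among RGC-like cells without one, the share was 2.54% (1.10 to 4.94) and 0.701% (0.191 to 1.78). *Eomes* was thus found more often in RGC-like cells with a *Neurog2* UMI, although most of these held none, and *Eomes* itself was a marker used in naming the classes.

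Among IPC-like cells, *Neurod1* was found in 10.5% and 8.95% of those with a *Neurog2* UMI and in 22.5% and 15.2% of those without, and the intervals overlapped in both libraries. In the larger IPC-like cluster alone the shares were 10.6% and 9.49% against 26.9% and 17.1%, and the intervals of replicate 1 (5.61 to 17.8 and 18.8 to 36.2) did not overlap. *Neurod6* was found in 30.6% and 36.8% with *Neurog2* and in 42.8% and 48.4% without. *Eomes* went the other way, at 68.5% and 61.1% with *Neurog2* against 55.8% and 48.8% without. Of IPC-like cells with a *Neurod1* UMI 52.3% and 52.7% also held *Neurod6*, against 33.9% and 42.1% of those without. In the larger IPC-like cluster alone these shares were 56.1% and 46.7% against 36.7% and 43.8%, so that replicate 2 showed little difference. The same direction was thus seen in both libraries for each pair, and cells of 1 library are not replicates, so these shares were not tested.

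**Figure D4:**
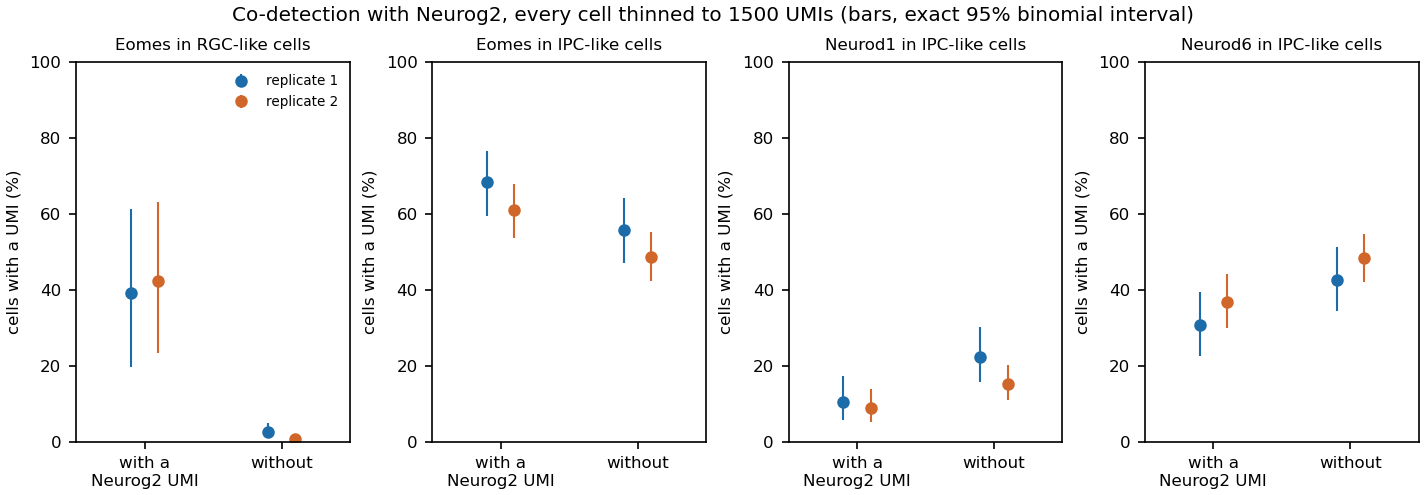
Share of cells with a UMI of the gene in each panel's title (y axis, percent) among cells with and without a *Neurog2* UMI (x axis), every cell thinned to 1500 UMIs, with exact 95% binomial intervals. The first panel shows *Eomes* in 39.1% and 42.3% of RGC-like cells with *Neurog2*, and the third *Neurod1* in 10.5% and 8.95% of IPC-like cells with it.

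GABAergic progenitor-like cells were set against both pallial progenitor classes. Against IPC-like cells all 9 members were lower, *Neurog1* and *Neurod4* with the same limit, where 26.3% of all genes were called and 11.6% were called lower. DESeq2 called 6, without *Neurod4* and *Nhlh1*, and gave no adjusted p for *Neurog1*. The median log2 fold change was -4.54 over the members and 0.04 over all genes. The members' median was the fitted value of *Nhlh2*, from 0 and 1 UMI in the GABAergic progenitor-like class.

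*Neurog2* had 2 and 20 UMIs in GABAergic progenitor-like cells (1.05 and 6.60 CPM), -6.86 ± 0.27 against IPC-like cells (adjusted p = 5.85e-23, edgeR), with log2 ratios of -8.93 in replicate 1 and -6.29 in replicate 2. Over both libraries it was 115.7-fold lower, with a counting interval of 76.3 to 185.0. *Neurod1* had 5 and 12 UMIs (-5.13 ± 0.31), *Neurod4* 4 and 1 (-4.67 ± 0.65, a ratio of 11.4 to 84.9 by its counting interval), and *Neurog1*, *Nhlh1* and *Nhlh2* 0 and 1 each. All were at or below 6.60 CPM. For *Neurog2* and *Neurod1* these levels lay within the ranges of the non-neural classes, which reached 12.5 and 15.5 CPM.

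*Neurod6* measured 25.3 and 42.2 CPM, *Neurod2* 8.96 and 16.8 CPM and *Bhlhe22* 2.63 and 11.9 CPM, differences of -3.55 ± 0.18, -3.23 ± 0.24 and -1.32 ± 0.32. These levels lay within the ranges of the non-neural classes. Of the UMIs of these 3 genes together, *Neurod6* made up 68.6% and 59.5% in GABAergic progenitor-like cells, 54.5% to 61.0% in the upper- and deep-layer neuron-like classes, 73.8% and 73.1% in IPC-like cells, and 38.5% to 90% in the 5 non-neural classes, some of which held few UMIs. When no doublets were removed *Bhlhe22* was 0.80 higher than in IPC-like cells.

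Against RGC-like cells 2 members were called, 1 lower and 1 higher, where 36.9% of all genes were called, 18.5% lower and 18.4% higher. *Neurog2* differed by -3.78 ± 0.35 (adjusted p = 7.35e-12, edgeR), with log2 ratios of -6.33 in replicate 1 and -2.85 in replicate 2 and a counting interval of 9.34 to 23.1 for the ratio, and was 0.99 higher under the clustering as first written. *Neurod4*, the member called higher (adjusted p = 0.0430), rested on 4 and 1 UMIs against 0 and 0, which gives no fold over the floor of 3 UMIs. *Neurod6*, *Neurod2* and *Neurod1* differed by 0.23 ± 0.23, 0.73 ± 0.38 and 0.93 ± 0.71 and did not pass the test. With classes cut by gates on marker UMIs all 3 were called lower, at -1.99, -1.76 and -1.41, and the number of members called ran from 1 to 6 over the alternatives.

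GABAergic neuron-like cells (medial, caudal and lateral ganglionic eminence interneuron-like and striatal projection neuron-like classes) were lower than upper- and deep-layer neuron-like cells for 5 members and higher for 0, where 39.1% of all genes were called, 21.5% lower and 17.7% higher. *Neurod2* averaged 9.87 and 16.5 CPM against 401 and 384 CPM (-4.89 ± 0.13), *Bhlhe22* 11.9 and 13.9 against 278 and 314 (-4.59 ± 0.12), and *Neurod6* 43.5 and 54.9 against 902 and 986 (-4.28 ± 0.09). *Neurod1* (-3.22 ± 0.35) and *Nhlh2* (-1.39 ± 0.53, adjusted p = 0.0335, edgeR) were lower as well. *Nhlh2* measured 0.69 and 1.38 CPM against 2.71 and 3.05 CPM, all within the 0 to 7.74 CPM of the non-neural classes. *Neurod1* had log2 ratios of -4.54 in replicate 1 and -2.58 in replicate 2.

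**Figure D5:**
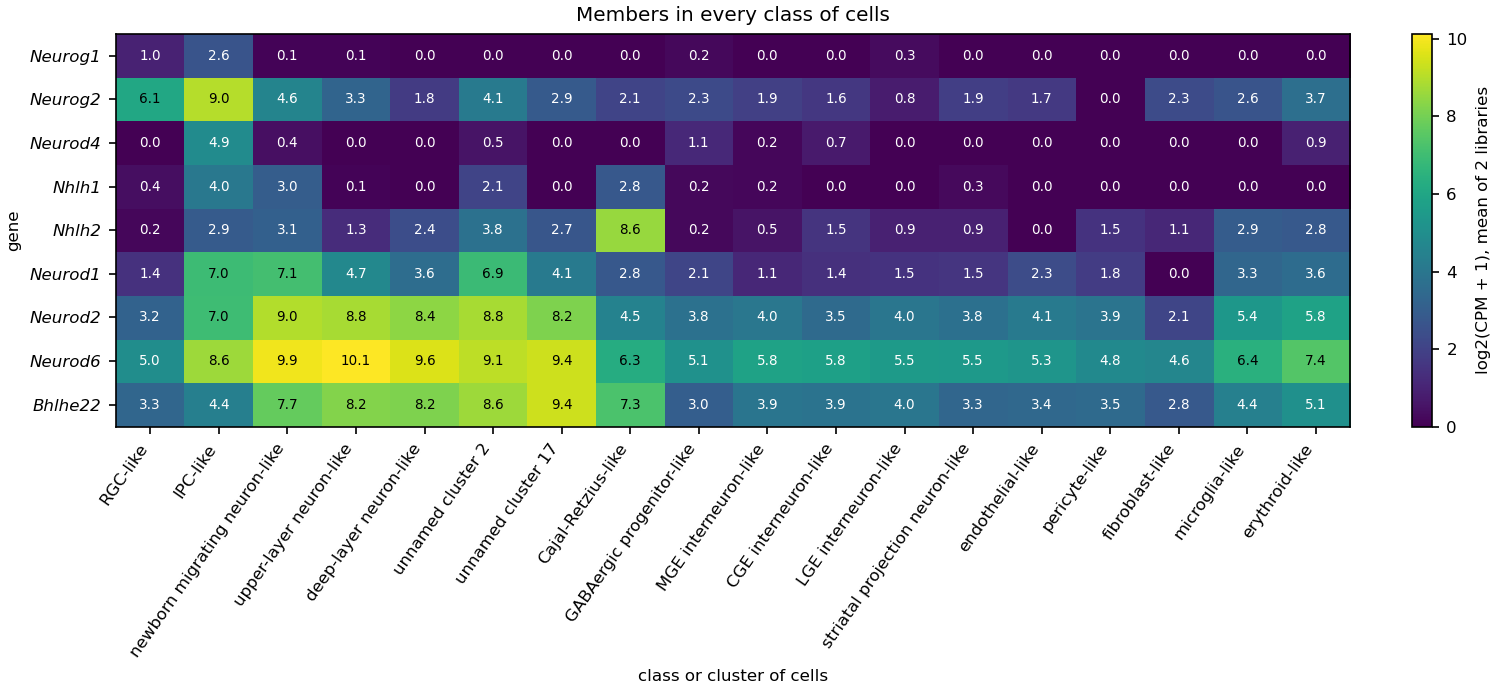
Level of each member (rows) as log2(CPM + 1), the mean of the 2 libraries. Columns are the 16 classes of at least 20 cells in each library and 2 unnamed clusters. *Neurod2*, *Neurod6* and *Bhlhe22* were higher in the newborn, upper-layer and deep-layer classes than in the GABAergic and non-neural ones, and *Nhlh2* was highest in Cajal-Retzius-like cells.

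The other genes of the family gave a different picture. Of 27 listed E proteins, other neural activators, HLH inhibitors (Id proteins, which bind E proteins but not DNA) and bHLH repressors of the Hes and Hey group, 19 were tested. From RGC-like to IPC-like cells 15 were called, 4 higher and 11 lower, where 32.5% of all genes were called. *Hes5*, a Notch effector that holds RGCs undifferentiated, went from 153 and 177 to 9.46 and 7.70 CPM (-4.21 ± 0.22), and its relative *Hes1* from 95.2 and 109 to 8.603 and 3.85 CPM (-4.03 ± 0.23). *Id3* (-4.15 ± 0.29) and *Olig1* (-3.66 ± 0.49) fell too. The log2 ratios in replicates 1 and 2 were -3.47 and -4.82 for *Hes1*, -5.04 and -3.73 for *Id3* and, from 6 and 3 UMIs in IPC-like cells, -2.88 and -4.76 for *Olig1*. Of 4 HLH inhibitors 3 were called lower and *Id2* higher, and of 8 repressors 5 were called lower and *Hes6* higher, at 89.2 and 77.0 CPM in RGC-like cells and 315 and 296 CPM in the IPC-like class. The median log2 fold change was -1.87 over all 19 genes and 0.45 over the E proteins.

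From IPC-like to newborn cells 8 of the 19 were called, 1 higher and 7 lower, where 33.3% of all genes were called. *Hes6*, which works against Hes1, changed by -1.58 ± 0.11 and the E protein gene *Tcf3* by -0.64 ± 0.13. *Id2* rose from 251 and 250 to 624 and 535 CPM (1.29 ± 0.15). These 3 genes were also among those named by the same rule in upper-layer against IPC-like cells, in the same directions, where 13 were called, 3 higher and 10 lower, against 48.6% of all genes. In deep-layer against upper-layer cells 6 were called, 1 higher and 5 lower, against 13.8% of all genes, led by *Id4* (-2.37 ± 0.26) and *Tcf12* (-1.35 ± 0.13), followed by *Tcf4* and *Hes6*.

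In GABAergic progenitor-like cells other listed genes were higher. *Helt*, a repressor known from GABAergic neurons of the midbrain, measured 37.4 and 38.6 CPM there against 0.86 and 1.60 CPM in IPC-like cells (4.87 ± 0.56, a ratio of 14.1 to 74.8 by its counting interval). *Olig1* was higher by 3.83 ± 0.49, with log2 ratios of 2.57 in replicate 1 and 5.11 in replicate 2, while *Id2* differed by -2.75 ± 0.19. In all 12 of the 19 were called, 8 higher and 4 lower, against 26.3% of all genes. Against RGC-like cells 15 were called, 6 higher and 9 lower, against 36.9% of all genes, led by *Helt* (4.99 ± 0.54, with 5.73 in replicate 1 from 2 RGC-like UMIs and 4.52 in replicate 2) and, lower, *Hes1*, *Hey1* and *Hes5*. In GABAergic neuron-like against excitatory cells 10 were called, 7 higher and 3 lower, against 39.1% of all genes, among them *Id2* (-4.08 ± 0.10), *Id4* and *Tcf12* (2.08 ± 0.08).

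In cycling IPC-like cells *Id1* (2.87 ± 0.49) and *Olig2* (2.03 ± 0.51, with 2.47 in replicate 1 and 1.39 in replicate 2) were higher, while *Id2* was lower (-0.52 ± 0.10). Of 11 listed genes tested there 7 were called, 5 higher and 2 lower, against 29.6% of all genes. In cycling RGC-like cells 5 of 16 were called, 3 higher (*Id1*, *Tcf3*, *Tcf4*) and 2 lower, among them *Hes6*, against 23.3% of all genes.

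Outside the lineage, *Nhlh2* was highest in Cajal-Retzius-like cells, early neurons of the marginal zone that secrete reelin. The class held 25 and 30 cells with 55 and 141 *Nhlh2* UMIs (300.8 and 461 CPM), and a UMI was found in 52.0% (31.3 to 72.2) and 83.3% (65.3 to 94.4) of cells, or 36.0% and 56.7% after thinning. In IPC-like cells the share was 6.11% and 1.14%. *Bhlhe22* measured 142 and 167 CPM in the same cells, while *Neurod6* measured 71.1 and 81.7 CPM, within the range of the non-neural classes.

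Likeness of pattern was measured as Pearson's r of log2(CPM + 1) over the 16 classes, as a description over 13813 genes; the classes share libraries and depth. *Neurod2* and *Neurod6* were each other's nearest gene (r = 0.98), and *Gm37529* was among the 3 nearest to *Neurod2* (0.92), while *Neurod6* was followed by *Id2* (0.93) and *Gm37529* (0.92). *Neurod1* was nearest to *2600014E21Rik* (0.91), *Slc17a6* (0.88) and *Neurod2* (0.87). *Bhlhe22* was nearest to *Abcc8* (0.96), *Tbr1* (0.91) and *Trnp1* (0.90). *Neurog2* was nearest to *AA387883* (0.91), *Gm34425* (0.88) and *Sypl2* (0.86), of which the first 2 were also among the 3 nearest to *Neurod4*, after *Gm33460* (0.90). *Nhlh1* was nearest to *A530058N18Rik* (0.91), *Ap3s1* (0.90) and *Eomes* (0.87), and *Nhlh2* to *Barhl2* (0.89), *Ripk4* (0.88) and *2210408F21Rik* (0.87). With Spearman's rank correlation none of the 3 nearest genes of *Neurog2*, *Neurod4*, *Nhlh1* and *Nhlh2* remained. By that measure *9130024F11Rik* was nearest to both *Neurod2* (0.94) and *Neurod6* (0.96). *Neurod6* was then at rank 3 for *Neurod2* (0.90), and *Neurod2* was not among the 3 nearest to *Neurod6*. *Neurog1* was under 10 CPM in every class and was not ranked.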

How the data were processed

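Single-cell RNA sequencing (10x Genomics 3′, v3.1) was carried out on cerebral cortex of 2 WT libraries at E16.5. The authors deposited raw UMI counts per gene and barcode, aligned to mm10 with Cell Ranger (7.0.0 in the submitters' processing notes, 7.1.0 in the matrix headers); the gene annotation is not given in the sources used here. The matrices hold no normalized values and no comparison of the authors.

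Both libraries formed 1 group, and cells were kept at 1500 to 60000 UMIs and under 10% mitochondrial UMIs. The highest Scrublet scores were removed as doublets, in proportion to each library's barcodes, 1543 of 16213 cells; Scrublet's own threshold marked 135 and 481. Cells were clustered in scanpy 1.11.5 (2000 variable genes, 30 principal components, 20 neighbours, Leiden resolution 1, leidenalg 0.10.2) without the members and the bHLH list. A cluster was named "-like" after the marker list with the highest mean log2 enrichment, if that was at least 0.75 and at least 3 markers were higher in it and found in 10% of its cells, unless another list had more markers among its 10 leading genes, which left 1 cluster of 542 cells unnamed. Phases were scored from 42 S and 52 G2/M genes.

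A first clustering, as planned, split cycling cells by library. After its clusters and markers, but not the members' values, had been seen, cycle genes and genes correlated above 0.3 with the cycle scores were left out, the scores were regressed out within each library, and the marker limit was lowered to 0.75; the first clustering is kept as an alternative. The members and gene lists were chosen with earlier results of these data known.

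UMIs were summed per library and class (16 classes of at least 20 cells in each library) and tested with edgeR 4.0.16 (quasi-likelihood, TMM, R 4.3.3) for genes with at least 10 counts in 2 sums, with the library as a block, Benjamini-Hochberg over all genes tested and a threshold of 0.05. Pairing rests on both classes of a pair coming from 1 library. The fit over all classes was tested on simulated data. The cycle-phase fits, on 4 sums each, were not, and their spread rests on 1 residual degree of freedom a gene before it is shared across genes. DESeq2 1.42.0 and other settings were alternatives. Cycling and non-cycling GABAergic progenitor-like cells were not compared, since 7 and 24 cells were non-cycling. Named were all members, in each comparison the 4 listed bHLH genes called that moved furthest, had at least 10 CPM and kept 1 direction in both libraries, and for each member the 3 genes most alike in pattern; some of these genes are not reported here. Counting intervals stand in place of a fitted change for genes with at most 3 UMIs in each library of a class, but not 0 in both. For a class at 0 in both libraries, 3 UMIs per library stand in. Python 3.11.15, scipy 1.17.1 and matplotlib 3.10.9 were used.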

Additional observations from a re-analysis of the deposited data

Results flagged for a closer look

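The members were also summed in clusters that entered no comparison of the lineage, and 4 values lay above every class compared, in both libraries. None of them was tested, and each cluster was formed from the same cells.

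*Nhlh2* measured 300.8 and 460.9 CPM in the Cajal-Retzius-like cluster (mean 380.8 ± 113 SD, n = 2), against at most 10.8 and 5.89 CPM in the classes compared. The cluster held 25 and 30 cells.

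An unnamed cluster of 1198 cells led by *Tfap2d*, *Tafa1*, *Nr2f2* and *Nrp2* held *Nhlh2* at 15.7 and 9.96 CPM (mean 12.8 ± 4.06 SD, n = 2) and *Bhlhe22* at 354 and 443 CPM (mean 398.8 ± 63.0 SD, n = 2). The *Eomes*-richer newborn cluster, part of a class compared, held *Nhlh2* at 13.9 and 9.81 CPM. Those levels overlapped the ones in the unnamed cluster. The highest *Bhlhe22* levels in the classes compared were 299 and 320 CPM. *Neurod1* measured 128 and 109 CPM in these cells and *Neurod6* 538 and 578.5 CPM.

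*Bhlhe22* measured 639 and 674 CPM (mean 656.6 ± 24.5 SD, n = 2) in an unnamed cluster of 158 cells led by *Sphkap*, *Tafa1*, *Nefl* and *Nefm*, and a *Bhlhe22* UMI was found in 76.2% of its cells on average over the libraries. *Neurod2* measured 275 and 296 CPM and *Neurod6* 688 and 624 CPM there.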

How the results depend on the processing

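Of 49 called fold changes of members, 49 kept call and direction with DESeq2 size factors in edgeR, 48 without a filter on low counts and 46 without the replicate block; the block changed the number of members called by over 1.5 times only among cycling IPC-like cells, 5 with and 3 without it. At Leiden resolutions of 0.6 and 1.4, 47 and 49 were kept, at 2500 UMIs or more and under 5% mitochondrial UMIs 47, with the members among the variable genes 47, with cycle scores not regressed out 46 and with no doublets removed 44. Gates on marker UMIs kept 31 of 37, and DESeq2's Wald test 29 of 48. 2 alternatives were chosen after seeing the data: the clustering as first written kept 39 of 45, and the classes without the cycling IPC-like cluster 40 of 40. With 1 library alone no called fold change turned its sign, while 10 of 36 fitted ones lay over 1.5 times from the fit in 1 library, of which 7 are given with their comparisons above; the other 3 were those of *Neurod1* in deep-layer against upper-layer cells (-0.81 and -1.99), *Neurod4* (-4.05 and -6.07) and *Bhlhe22* (-2.43 and -1.08) in GABAergic progenitor-like against IPC-like cells, in replicates 1 and 2. Counts of calls cannot be had from 1 library.

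The number of members called moved by over 1.5 times in 4 comparisons, and the cause was not tested; the DESeq2 losses in others are given with them above, and in GABAergic against excitatory neurons DESeq2 called 6 in place of 5. For deep-layer against upper-layer cells it was 3, and 0 with DESeq2. For GABAergic progenitor-like against RGC-like cells it was 2, and 1 with DESeq2, with the compared classes alone in the fit, at resolution 0.6 and without regressing cycle scores, 5 with no doublets removed and with the clustering as first written, and 6 with gates. For cycling IPC-like cells it was 5, and 1 with DESeq2 and 3 with the clustering as first written. For cycling RGC-like cells it was 1, and 0 with DESeq2 and with the members among the variable genes. Over all genes, DESeq2 called 752 against 3020 in cycling IPC-like and 635 against 2600 in cycling RGC-like cells, the clustering as first written called 464 in cycling IPC-like cells and 3098 against 5099 in newborn against IPC-like cells, gates called 3981 against 5991 in GABAergic against excitatory neurons, and a fit of the compared classes alone called 3295 against 2112 in deep-layer against upper-layer cells.

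Directions turned as follows, as log2 fold changes. With gates, *Bhlhe22* was at -1.05 in IPC-like against RGC-like cells, and *Neurod1*, *Neurod2* and *Neurod6* were at -1.41, -1.76 and -1.99 in GABAergic progenitor-like against RGC-like cells. With the clustering as first written, *Neurog2* was at 0.99 and *Bhlhe22* at 0.58 in that comparison, and *Neurog2*, *Neurod4*, *Nhlh1* and *Bhlhe22* were at 0.45, 0.56, 0.18 and -0.12 in cycling IPC-like cells. With no doublets removed, *Bhlhe22* was at 1.23 in GABAergic progenitor-like against RGC-like cells, 0.80 against IPC-like cells and -0.60 in cycling RGC-like cells, where *Neurod6* was at -0.31. With the stricter cell filter *Bhlhe22* was at 0.071 in deep-layer against upper-layer cells and 0.11 in GABAergic progenitor-like against RGC-like cells, and *Neurod4* at 0.15 in cycling IPC-like cells. In cycling RGC-like cells, with the members among the variable genes, *Neurog2*, *Neurod2*, *Neurod6* and *Bhlhe22* were at 0.80, 0.22, -0.064 and -0.15, and *Bhlhe22* was at -0.021 and -0.042 at resolutions 0.6 and 1.4.

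*Neurog1*, *Neurod4*, *Nhlh1* and *Nhlh2* rest on under 50 UMIs a library in most classes, and their fold changes are limited by this depth.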
